A study of Homo sapiens with 12 samples.

Results

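The mitoNEET family (CISD1, CISD2 and CISD3) and the mitochondrial pyruvate carrier (MPC1 and MPC2) were examined in acute myeloid leukaemia cell lines exposed to thiazolidinediones. The 5 genes were chosen by name, because their products are mitochondrial proteins described as binding this drug class, and both subunits of the carrier were kept. They are 5 of the 57865 genes to which the deposited transcripts could be assigned, and all 5 were among the 15424 genes tested after a filter on low counts. The established lines KG-1a, MOLM-14, OCI-AML3 and MV4-11 were each cultured for 12 h with 10 µM pioglitazone, with 10 µM darglitazone or with DMSO, the solvent control. Total RNA depleted of ribosomal RNA gave 1 library per line and treatment, 12 in all. The labels name no engineered change in any line. No line was cultured again under the same treatment, so the lines served as replicates for the drugs. Each line is a model of 1 patient's leukaemia. The p-values of the drug tests on single genes rest on the spread of drug differences between these lines. That spread was pooled over both drugs and moderated by the spread of all genes. In tests between lines, the libraries of a line are single cultures under different treatments, not repeat cultures. Those p-values rest on the spread left after line and treatment, moderated in the same way, not on a spread between repeat cultures of a line.

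Proteins of the mitoNEET family hold an iron-sulfur cluster in a CDGSH domain, where cysteines and a histidine bind the iron. MitoNEET itself, the product of CISD1, sits in the outer mitochondrial membrane and was first isolated as a target of pioglitazone. The product of CISD2 lies in the endoplasmic reticulum and the outer mitochondrial membrane, takes part in calcium handling and autophagy, and is mutated in a form of Wolfram syndrome. The product of CISD3 lies inside the mitochondrion and carries a pair of CDGSH domains in a single chain. MPC1 and MPC2 form a heterodimer in the inner mitochondrial membrane that brings pyruvate from the cytosol to pyruvate dehydrogenase, and thiazolidinediones inhibit that transport. The nuclear receptor PPARG is the better known target of the class, and pioglitazone and darglitazone are both agonists of it. Both drugs share the thiazolidinedione ring, with a tail that ends in an ethylpyridine in pioglitazone and in a phenyl-substituted oxazole in darglitazone.

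The CDGSH coding stretches are shown because they are what unites the 3 genes of the family and what sets CISD3 apart within it. They were read from the GENCODE 29 transcripts, 5′ to 3′ on the coding strand, and capitals mark the codons of the 3 cysteines and the histidine that bind the cluster. Each stretch is 48 bases long and covers codons 72 to 87 of 108 in CISD1, 99 to 114 of 135 in CISD2, and 60 to 75 and 98 to 113 of 127 in CISD3.
CISD1: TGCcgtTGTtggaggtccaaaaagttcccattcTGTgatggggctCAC
CISD2: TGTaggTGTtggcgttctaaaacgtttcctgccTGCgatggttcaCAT
CISD3 stretch 1: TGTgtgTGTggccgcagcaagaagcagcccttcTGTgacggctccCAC
CISD3 stretch 2: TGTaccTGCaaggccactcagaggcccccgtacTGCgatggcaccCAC
The CISD1 and CISD2 stretches matched at 32 of 48 bases (66.7%). Stretch 1 of CISD3 matched CISD1 at 29 bases (60.4%) and CISD2 at 27 bases (56.2%), and stretch 2 matched CISD1 at 25 bases (52.1%) and CISD2 at 26 bases (54.2%). The 2 stretches of CISD3 matched each other at 28 bases (58.3%).

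In GRCh38 as annotated by GENCODE 29, CISD1 (ENSG00000122873.11) lies on the plus strand of chromosome 10 from 58269058 to 58289586 and CISD2 (ENSG00000145354.11) on the plus strand of chromosome 4 from 102868974 to 102892807. CISD3 (ENSG00000277972.1) lies on the plus strand of chromosome 17 from 38730235 to 38735044. MPC1 (ENSG00000060762.18) lies on the minus strand of chromosome 6 from 166364919 to 166383013, and MPC2 (ENSG00000143158.10) on the minus strand of chromosome 1 from 167916729 to 167937040. The table lists 4 transcripts of CISD1, 5 of CISD2, 3 of CISD3, 7 of MPC1 and 3 of MPC2. Exons of 3 members overlap exons of a gene on the other strand: CISD2 shares 206 bases with SLC9B1, CISD3 shares 1148 bases with PCGF2 and MPC2 shares 575 bases with DCAF6. SLC9B1 had at most 49 counts and PCGF2 at most 9 counts in any library, whereas DCAF6 had up to 3960 counts. The library kit keeps strand, but the sources used here do not say whether the counting used it, so reads of MPC2 and DCAF6 in the shared bases may not be separated. The CISD1 pseudogene CISD1P1 and the MPC1 paralog MPC1L were at 0 in every library.

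Library depth ran from 1.095 M estimated counts in OCI-AML3 with pioglitazone to 64.23 M in OCI-AML3 with DMSO, a 58.7-fold range. Levels are given as CPM, the count over the library's total scaled by TMM, a normalization across libraries. In the shallowest library a count of 3 corresponds to 2.74 CPM, and the members had 11 to 27 counts each there. An entry derived from ribosomal RNA (FP671120.3) took 23.5% of the counts in KG-1a with pioglitazone and 6.17% in OCI-AML3 with pioglitazone, against at most 0.542% in the other 10 libraries. Some drug results are also given without these 2 pioglitazone libraries. A value printed without that alternative may also have moved. The leucocyte gene PTPRC and the myeloid genes SPI1 and CD33 were detected in all 12 libraries, with PTPRC between 107.8 and 490.6 CPM. Other myeloid leukaemia markers varied widely: LYZ ran from 16.3 to 2288 CPM, CD34 from 0.0839 to 724.9 CPM, MPO from 1.07 to 64.8 CPM and KIT from 0 to 9.23 CPM. The summed level of the 7 myeloid leukaemia markers was 575.0 to 2027 CPM with pioglitazone, 506.8 to 2160 CPM with darglitazone and 573.0 to 2794 CPM with DMSO. HBB, ALAS2, MS4A1 and KRT19 were at 0 in every library. KG-1a also had CD34 (609.5 CPM on average) and some CD3E, CD3D and CD79A (12.4, 10.3 and 13.1 CPM). KRT18 averaged 44.0 CPM in MOLM-14 and 11.3 CPM in MV4-11. Genes expressed in 1 line and not in another were picked by a low level in all libraries of the other lines. They were seen in the other line's libraries at up to 3.94% of their level (median of 6 MV4-11 genes in KG-1a with darglitazone). A set of 62 KG-1a genes stood at 2.05% in OCI-AML3 with pioglitazone. The way the genes were picked capped these percentages in advance, so they set no upper bound on RNA of 1 line in another line's libraries.

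The members were moderately expressed, and on average over the libraries the carrier genes stood above the mitoNEET family. On the TPM scale, which divides each transcript's count by its length before scaling to the library's total and so allows genes to be compared, MPC1 averaged 36.5 ± 7.79 TPM, MPC2 27.3 ± 5.96 TPM, CISD1 24.9 ± 11.7 TPM, CISD3 16.7 ± 6.96 TPM and CISD2 12.7 ± 2.67 TPM (SD, n = 12 libraries). Among the genes tested, MPC1 ranked at percentile 81.9, MPC2 at 76.5, CISD1 at 74.5, CISD3 at 65.3 and CISD2 at 58.9. MPC1 was the highest of the 5 genes in 10 of 12 libraries and exceeded MPC2 in 11 of 12. CISD2 was the lowest in 8 libraries and CISD3 in the other 4. The lower of the carrier genes exceeded the highest of the mitoNEET genes in 8 of 12 libraries. MOLM-14 ran against this order under every treatment. With pioglitazone, darglitazone and DMSO, it had 44.9, 43.7 and 37.6 TPM of CISD1 and 29.8, 24.9 and 20.6 TPM of MPC2. In OCI-AML3 with darglitazone CISD1 (28.5 TPM) also exceeded MPC2 (23.5 TPM). Within the mitoNEET family the make-up differed by line: CISD1 supplied 56.7% ± 3.59 of the family's TPM in MOLM-14 and 33.1% ± 0.453 in MV4-11, where CISD3 supplied most, at 39.5% ± 0.932 (SD, n = 3 libraries each).

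**Figure D1:**
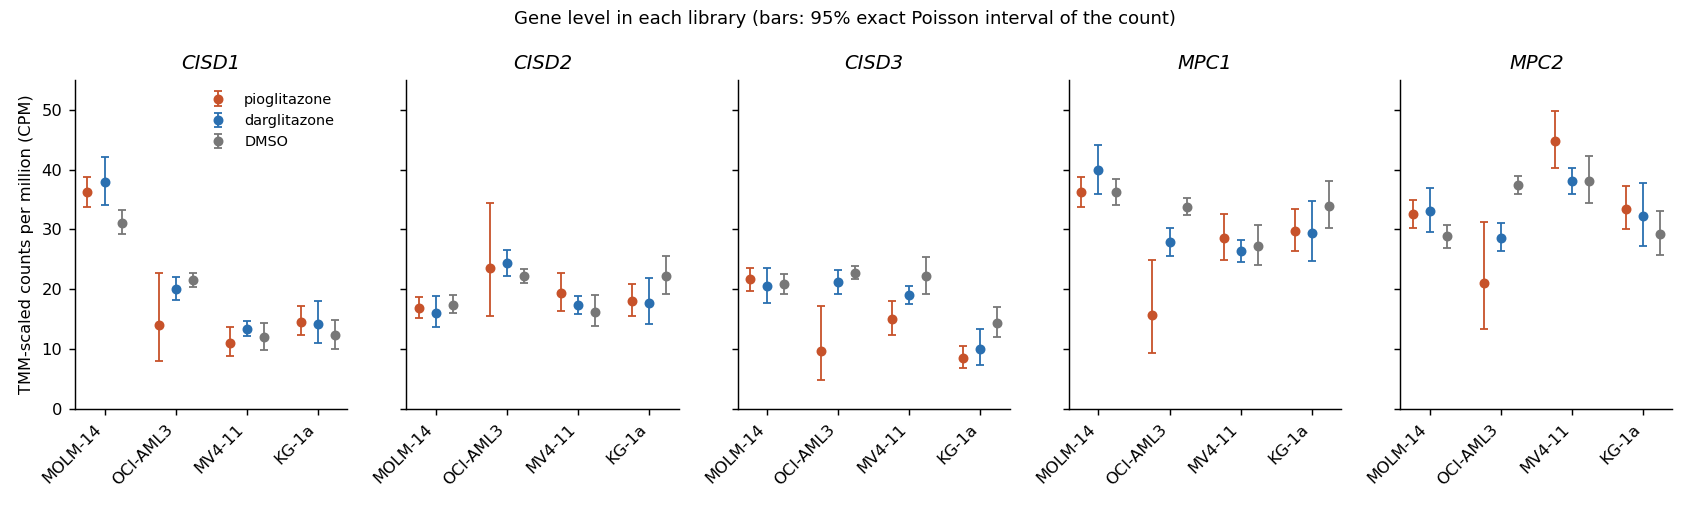
TMM-scaled CPM of each member (vertical axis, linear) in each line (horizontal axis), with pioglitazone, darglitazone and DMSO side by side and bars for the 95% exact Poisson interval of the count. The 3 MOLM-14 libraries stand apart for CISD1, at 31.1 to 37.9 CPM, and the OCI-AML3 pioglitazone points have the widest intervals.

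CISD1 was highest in MOLM-14. With pioglitazone, darglitazone and DMSO, in that order, MOLM-14 had 36.2, 37.9 and 31.1 CPM, OCI-AML3 had 14.0, 20.1 and 21.5 CPM, MV4-11 had 11.1, 13.3 and 12.0 CPM, and KG-1a had 14.6, 14.2 and 12.3 CPM. Every MOLM-14 library lay above every library of the other lines, OCI-AML3 lay above MV4-11 and overlapped KG-1a through its pioglitazone library, and MV4-11 and KG-1a overlapped. That OCI-AML3 library had 16 CISD1 counts and an exact Poisson interval of 7.99 to 22.7 CPM, which spans the MV4-11 values. The line means were 35.1 ± 3.53, 18.5 ± 4.01, 12.1 ± 1.13 and 13.7 ± 1.22 CPM (SD, n = 3 libraries each). In the fit over all 12 libraries with edgeR's quasi-likelihood test, the difference between lines had a Benjamini-Hochberg adjusted p of 1.19e-05. Over all genes, 72.6% passed this test at an adjusted p under 0.05.

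Against each of the other lines, MOLM-14 had more CISD1 RNA per library. It was 2.88-fold higher in MOLM-14 than in MV4-11 (log2 fold change 1.53, SE 0.19, edgeR adjusted p 2.04e-05), a contrast in which 37.1% of all genes passed. It was 2.55-fold higher than in KG-1a (log2 fold change 1.35, SE 0.19, edgeR adjusted p 3.35e-05), where 52.7% of all genes passed. It was 1.80-fold higher than in OCI-AML3 (log2 fold change 0.85, SE 0.19, edgeR adjusted p 0.00301), where 33.6% passed. These 3 differences passed in 20 of 20 alternative settings. OCI-AML3 exceeded MV4-11 by 0.68 on the log2 scale (SE 0.20, edgeR adjusted p 0.0122, with 40.7% of all genes passing) and KG-1a by 0.50 (SE 0.20, edgeR adjusted p 0.0478, with 51.5% passing). The first of these passed in 16 of 20 alternatives and the second in 6 of 20. MV4-11 and KG-1a differed by -0.18 on the log2 scale (edgeR adjusted p 0.496, with 47.4% of all genes passing), less than the spread between their libraries.

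CISD3 was lowest in KG-1a. With pioglitazone, darglitazone and DMSO, MOLM-14 had 21.6, 20.5 and 20.8 CPM, OCI-AML3 had 9.61, 21.2 and 22.8 CPM, MV4-11 had 14.98, 19.0 and 22.1 CPM, and KG-1a had 8.55, 10.0 and 14.3 CPM. All KG-1a libraries lay below all MOLM-14 and MV4-11 libraries, and the OCI-AML3 pioglitazone library, with 11 counts and an exact Poisson interval of 4.80 to 17.2 CPM, lay inside the KG-1a range. The line test passed (edgeR adjusted p 0.00899). MOLM-14 exceeded KG-1a 1.96-fold (log2 fold change 0.97, SE 0.23, edgeR adjusted p 0.00241), OCI-AML3 exceeded KG-1a by 0.78 on the log2 scale (SE 0.24, adjusted p 0.0132 in edgeR) and MV4-11 exceeded KG-1a by 0.77 (SE 0.23, adjusted p 0.0125 in edgeR). The 3 higher lines differed from each other by 0.01 to 0.20 on the log2 scale, with edgeR adjusted p between 0.508 and 0.989.

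The CISD3 calls depended on which transcripts and libraries were counted. With only protein-coding transcripts counted, the line test had an edgeR adjusted p of 0.445 and the difference between MOLM-14 and KG-1a was 0.42 on the log2 scale (adjusted p 0.53 in edgeR), against 0.46 between MV4-11 and KG-1a (adjusted p 0.502) and 0.95 between OCI-AML3 and KG-1a (adjusted p 0.165). Without the KG-1a darglitazone library, the adjusted p was 0.0526 for the line test, 0.0603 for OCI-AML3 against KG-1a and 0.0569 for MV4-11 against KG-1a in edgeR. OCI-AML3 against KG-1a also missed the threshold without the OCI-AML3 DMSO library (adjusted p 0.0578 in edgeR) or its darglitazone library (adjusted p 0.0647), and MV4-11 against KG-1a without the MV4-11 DMSO library (adjusted p 0.0506).

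The other 3 members did not pass the line test. CISD2 ranged from 16.1 to 17.5 CPM for MOLM-14, 22.2 to 24.3 CPM for OCI-AML3, 16.2 to 19.4 CPM for MV4-11 and 17.8 to 22.2 CPM for KG-1a (edgeR adjusted p 0.114), with the OCI-AML3 libraries at the top and the KG-1a DMSO library level with the lowest of them. MPC1 ranged from 36.2 to 39.9 CPM for MOLM-14, 15.7 to 33.8 CPM for OCI-AML3, 26.3 to 28.5 CPM for MV4-11 and 29.5 to 34.0 CPM for KG-1a (edgeR adjusted p 0.107), so that all MOLM-14 libraries lay above all others. MPC2 ranged from 28.8 to 33.1 CPM for MOLM-14, 21.0 to 37.4 CPM for OCI-AML3, 38.1 to 44.8 CPM for MV4-11 and 29.2 to 33.5 CPM for KG-1a (edgeR adjusted p 0.18), and all MV4-11 libraries lay above all others. Without the OCI-AML3 DMSO library, the line test of MPC1 had an edgeR adjusted p of 0.0401 and that of MPC2 of 0.0266, and with limma-voom the test of CISD2 had an adjusted p of 0.0299. In the main fit, 2 of the 5 members (CISD1 and CISD3) passed the line test, against 72.6% of all genes.

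The transcripts behind these gene totals differed between the families. For the carrier, most counts fell on transcripts that hold the whole coding sequence: 98.4% ± 2.35 for MPC2 and 84.6% ± 9.52 for MPC1 (SD, n = 12 libraries), with MPC1 lowest at 66.8% in MV4-11 with darglitazone. For the mitoNEET family the share was 32.7% ± 6.94 for CISD1, 42.6% ± 10.9 for CISD2 and 38.9% ± 21.6 for CISD3. Counted on those transcripts alone, the 5 genes averaged 28.96 TPM for MPC1, 26.4 TPM for MPC2, 3.38 TPM for CISD3, 2.98 TPM for CISD1 and 1.52 TPM for CISD2. On that scale the lower carrier gene exceeded the highest mitoNEET gene in 12 of 12 libraries, and MPC1 was the highest gene in 7 libraries and MPC2 in 5. The gap depends on how fractional estimated counts were split among transcripts that share bases, and the accuracy of that split was not tested. The CISD3 share ran from 14.6% to 96.7% across libraries. The TPM also depends on annotated length, which is 5892 bases for CISD2-201 and 962 bases for MPC1-202.

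**Figure D2:**
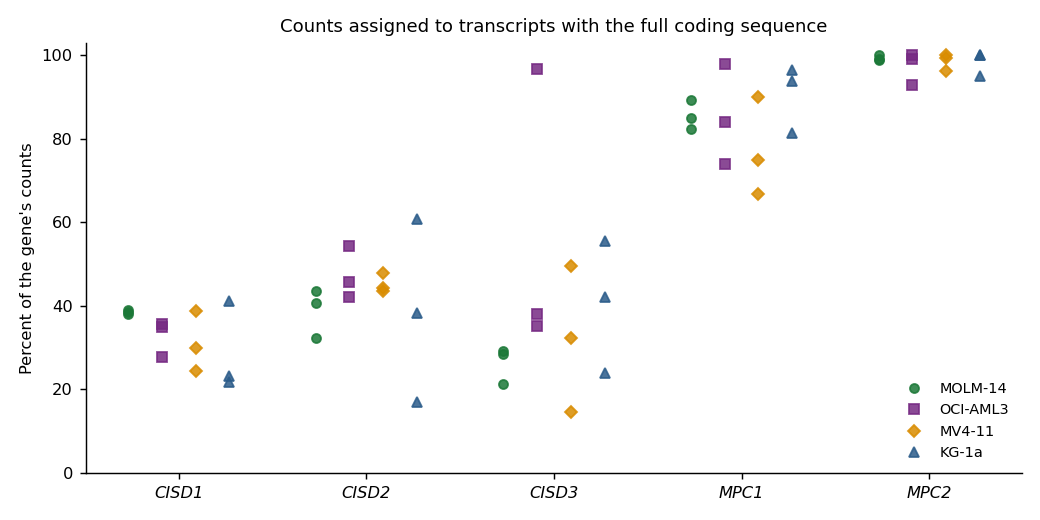
Percentage of each gene's counts (vertical axis) assigned to transcripts with the full coding sequence, with 1 point per library grouped and coloured by line. MPC2 lies between 93.0% and 100% in every library, and CISD1 between 21.8% and 41.1%.

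Over the summed counts of the 12 libraries, CISD1 was split among the coding transcript CISD1-201 (35.6%, 2479 bases long) and the processed transcripts CISD1-204 (33.3%) and CISD1-202 (29.4%). CISD1-204 was uneven in KG-1a, with 32.5% of the CISD1 counts with pioglitazone, 0.000201% with darglitazone and 0.868% with DMSO, from 145, 68 and 109 CISD1 counts in all. CISD2 was split among CISD2-201 (42.7%, 5892 bases) and 3 transcripts annotated for nonsense-mediated decay, CISD2-204 (32.5%), CISD2-205 (17.01%) and CISD2-203 (7.30%). CISD3 counts lay mostly on CISD3-205, a transcript of 773 bases with a retained intron (54.6%), followed by the coding CISD3-204 (34.3%) and CISD3-206 (11.1%). In the shallow OCI-AML3 library with pioglitazone CISD3-205 held 3.35% of 11 counts, against 56.3% of 1528 counts with DMSO. MPC1 lay mainly on MPC1-202 (83.9%, 962 bases), with 10.6% on MPC1-203, which retains an intron.

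On its coding transcript CISD1 was again highest in MOLM-14 and, on average, next in OCI-AML3, and the libraries of OCI-AML3, MV4-11 and KG-1a overlapped. CISD1-201 averaged 5.79 ± 0.518 TPM for MOLM-14, 2.87 ± 0.740 TPM for OCI-AML3, 1.74 ± 0.509 TPM for MV4-11 and 1.54 ± 0.743 TPM for KG-1a (SD, n = 3 libraries each), and the MOLM-14 libraries (5.20 to 6.15 TPM) did not overlap those of any other line. For CISD3-204 the means were 2.86 ± 0.601 TPM for MOLM-14, 4.79 ± 0.509 TPM for OCI-AML3, 3.59 ± 2.58 TPM for MV4-11 and 2.29 ± 1.62 TPM for KG-1a. The KG-1a libraries (0.790 to 4.01 TPM) overlapped those of MOLM-14 (2.19 to 3.34 TPM) and MV4-11 (1.17 to 6.30 TPM) and lay below the OCI-AML3 libraries (4.22 to 5.18 TPM). The value of 5.18 TPM is the OCI-AML3 pioglitazone library, with 11 CISD3 counts. The value of 0.790 TPM is the KG-1a pioglitazone library, where the rRNA-derived entry took 23.5% of the counts and stays in the TPM total.

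MPC2 was the only member whose full coding sequence came from 2 transcripts with starts far apart: MPC2-202 held 61.4% of its counts and MPC2-201, which starts 1000 bases upstream, held 37.1%. With pioglitazone, darglitazone and DMSO, the share of MPC2-201 was 46.0%, 33.4% and 25.3% for MOLM-14, 74.9%, 20.4% and 48.1% for OCI-AML3, 25.6%, 33.1% and 34.3% for MV4-11, and 30.7%, 31.4% and 36.1% for KG-1a. With pioglitazone it was above DMSO in MOLM-14 and OCI-AML3 and below it in MV4-11 and KG-1a, so the treatments overlapped, and the OCI-AML3 pioglitazone value rests on 24 counts. Both starts lie where DCAF6 overlaps MPC2 on the other strand, and the transcripts also differ at their other end (167918068 for MPC2-201, 167916729 for MPC2-202). The share of MPC2-201 therefore need not measure use of the upstream start. The promoters near both starts are shown because transcripts annotated from each were assigned counts. They are RefSeq windows of GRCh38.p14 on the minus strand, from 250 bases before to 50 bases after the start, written 5′ to 3′ with capitals for matches to the motifs named next.
MPC2 downstream start, chr1:167935947-167936246: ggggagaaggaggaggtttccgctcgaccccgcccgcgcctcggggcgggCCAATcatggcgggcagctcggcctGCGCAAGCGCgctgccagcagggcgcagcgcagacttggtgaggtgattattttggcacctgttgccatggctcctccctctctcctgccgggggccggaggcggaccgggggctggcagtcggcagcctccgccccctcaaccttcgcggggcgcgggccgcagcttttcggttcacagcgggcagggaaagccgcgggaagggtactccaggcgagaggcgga
MPC2 upstream start, chr1:167937023-167937322: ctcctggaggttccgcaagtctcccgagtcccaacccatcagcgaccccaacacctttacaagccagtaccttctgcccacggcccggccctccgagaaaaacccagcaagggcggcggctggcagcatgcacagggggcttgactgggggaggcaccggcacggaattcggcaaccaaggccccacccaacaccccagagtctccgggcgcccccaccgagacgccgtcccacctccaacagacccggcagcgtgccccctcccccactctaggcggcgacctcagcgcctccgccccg
Both strands of the members' 7 listed promoters were searched for 4 motifs, and no match overlapped a match of another motif. A CCAAT box (CCAAT, in 34.6% of 35116 promoters) was found in the downstream MPC2 window, once in CISD2 and at 2 places in MPC1. An NRF1 site (GCGCANGCGC, in 5.78% of promoters) was found in the downstream MPC2 window and in CISD1 and CISD2. An E-box (CACGTG, in 7.26% of promoters) was found in CISD1. A PPAR response element (AGGTCANAGGTCA, in 0.0228% of promoters) was in none of the 7 windows. The upstream MPC2 windows held none of the 4 motifs. The CISD3 promoter was 84.0% G and C, against a median of 58.7% over all promoters.

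The drugs were then compared with DMSO after 12 h. No member passed the test with pioglitazone or with darglitazone. The edgeR fit called 0 of 15424 genes with pioglitazone (0.0%) and 0 with darglitazone (0.0%), with 919 and 525 genes at an unadjusted p under 0.05. DESeq2 called 74 and 6 genes and limma-voom 0 and 6. No member was called by limma-voom, or by DESeq2 with darglitazone. With pioglitazone DESeq2 gave the members no adjusted p, so they could not be among its calls. Both comparisons share the DMSO libraries, so their values are not independent.

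CISD3 had the lowest unadjusted p of the members. It averaged 13.7 ± 5.998 CPM with pioglitazone and 20.02 ± 3.88 CPM with DMSO (SD, n = 4 lines each), and the groups overlapped. With pioglitazone the log2 ratio to DMSO (prior count of 2) was 0.06 for MOLM-14, -1.23 for OCI-AML3, -0.56 for MV4-11 and -0.74 for KG-1a, lower in 3 of 4 lines. The OCI-AML3 value rests on 11 counts. Apart from OCI-AML3 and KG-1a, whose pioglitazone libraries are in doubt, MV4-11 was lower and MOLM-14 was not. The fitted log2 fold change was -0.50 (SE 0.20, 95% interval -0.93 to -0.07, unadjusted p 0.0254, edgeR adjusted p 0.806), a ratio of 0.706. With darglitazone CISD3 averaged 17.7 ± 5.18 CPM, with log2 ratios to DMSO of -0.02, -0.10, -0.22 and -0.51 in the same lines, lower in 4 of 4, and a fitted log2 fold change of -0.20 (95% interval -0.61 to 0.21, adjusted p 0.999988 in edgeR). The pioglitazone value was -0.27 without the pioglitazone libraries of KG-1a and OCI-AML3 and -0.91 with only protein-coding transcripts. The share of counts on the rRNA-derived entry was 23.5% in KG-1a and 6.17% in OCI-AML3 with pioglitazone, against at most 0.145% with DMSO, and its part in the CISD3 value was not tested further.

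For CISD1, the gene of the pioglitazone-binding mitoNEET protein, the levels with and without drug were close. It averaged 19.0 ± 11.6 CPM with pioglitazone, 21.4 ± 11.4 CPM with darglitazone and 19.2 ± 9.07 CPM with DMSO. The fitted log2 fold change was -0.01 with pioglitazone (SE 0.17, 95% interval -0.37 to 0.35, edgeR adjusted p 0.998) and 0.13 with darglitazone (SE 0.16, 95% interval -0.22 to 0.47, edgeR adjusted p 0.999988). Pioglitazone was above DMSO in 2 of 4 lines and darglitazone in 3 of 4.

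CISD2 averaged 19.5 ± 2.94 CPM with pioglitazone, 18.9 ± 3.69 CPM with darglitazone and 19.5 ± 3.15 CPM with DMSO. Its log2 fold change was -0.01 with pioglitazone (95% interval -0.35 to 0.34) and -0.05 with darglitazone (95% interval -0.38 to 0.28), and each drug was above DMSO in 2 of 4 lines. In KG-1a both drug libraries (18.001 and 17.8 CPM) lay below DMSO (22.2 CPM), with Poisson intervals that overlapped.

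For the carrier, MPC1 averaged 27.6 ± 8.56 CPM with pioglitazone, 30.9 ± 6.15 CPM with darglitazone and 32.8 ± 3.83 CPM with DMSO. Its log2 fold change was -0.22 with pioglitazone (SE 0.17, 95% interval -0.58 to 0.15, edgeR adjusted p 0.931) and -0.11 with darglitazone (SE 0.16, 95% interval -0.45 to 0.24). MPC1 was lower with pioglitazone in 2 of 4 lines, the largest difference being -1.10 in OCI-AML3, where it rests on 18 counts. Without the pioglitazone libraries of KG-1a and OCI-AML3 its pioglitazone value was -0.04. MPC2 averaged 32.9 ± 9.73 CPM with pioglitazone, 33.0 ± 3.89 CPM with darglitazone and 33.4 ± 5.06 CPM with DMSO. Its log2 fold change was 0.0036 with pioglitazone (95% interval -0.35 to 0.36) and -0.03 with darglitazone (95% interval -0.37 to 0.31). MPC2 was above DMSO with pioglitazone in 3 of 4 lines, by 0.17 to 0.23 on the log2 scale, and below it in OCI-AML3 by -0.83, from 24 counts. Without the same 2 libraries its value was 0.14.

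**Figure D3:**
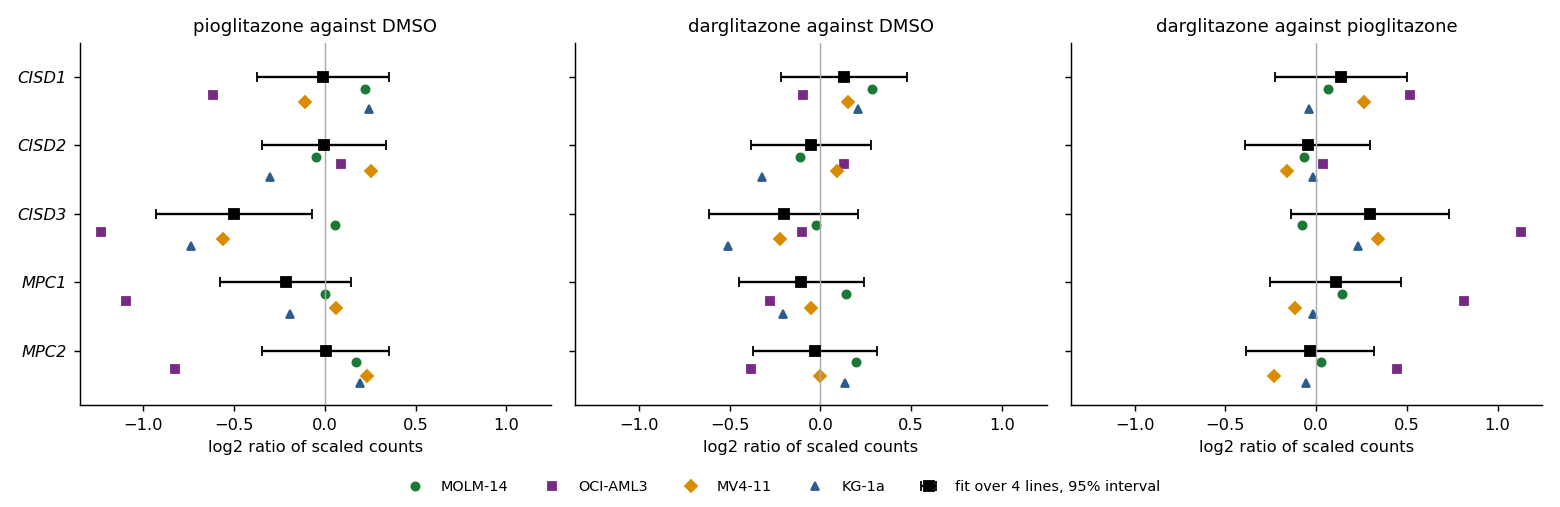
Log2 ratio of scaled counts (horizontal axis) for each member (vertical axis) in the comparisons of pioglitazone with DMSO, darglitazone with DMSO and darglitazone with pioglitazone. Black squares and bars are the fitted log2 fold change over the 4 lines with its 95% interval, coloured points are single lines, and only the interval of CISD3 with pioglitazone (-0.93 to -0.07) leaves out 0.

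The drugs were set against each other at the same dose and time, over 5 genes and 1 pair of compounds, with p-values adjusted over all genes. No member differed between darglitazone and pioglitazone in edgeR, which called 0 genes (0.0%), with 541 at an unadjusted p under 0.05, against 12 called by DESeq2 and 0 by limma-voom. DESeq2 gave the members no adjusted p in this comparison. CISD3 averaged 17.7 ± 5.18 CPM with darglitazone and 13.7 ± 5.998 CPM with pioglitazone, higher in 3 of 4 lines, with a log2 fold change of 0.30 (95% interval -0.14 to 0.73, unadjusted p 0.163, edgeR adjusted p 0.98), which was 0.05 without the pioglitazone libraries of KG-1a and OCI-AML3. For the other members the log2 fold change of darglitazone over pioglitazone and its 95% interval were 0.14 (-0.22 to 0.50) for CISD1, 0.11 (-0.25 to 0.47) for MPC1, -0.03 (-0.39 to 0.32) for MPC2 and -0.05 (-0.39 to 0.30) for CISD2. Without the same libraries the values were 0.08 for CISD1, -0.08 for MPC1, -0.19 for MPC2 and -0.15 for CISD2. The intervals allow differences of either sign, and for CISD3 a ratio of up to 1.66, so they do not show that the compounds act alike on these genes.

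Whether the lines responded differently was tested with terms for line by drug, which left 3 residual degrees of freedom. None of the 5 members passed (unadjusted p 0.257 to 0.64, edgeR adjusted p 1 for each). The fit called 1 of 15424 genes (0.00648%), the non-coding AL139099.4 (edgeR adjusted p 0.0237), named after its value was seen, with 470 genes at an unadjusted p under 0.05. DESeq2 called 64 genes and limma-voom 11, with no member among them.

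The balance of the carrier subunits was measured within each library, where no scaling is needed. With pioglitazone, darglitazone and DMSO, the log2 ratio of MPC1 to MPC2 counts was 0.15, 0.27 and 0.33 for MOLM-14, -0.41, -0.04 and -0.15 for OCI-AML3, -0.65, -0.53 and -0.48 for MV4-11, and -0.17, -0.13 and 0.22 for KG-1a. MV4-11 was lowest and MOLM-14 highest under every treatment. With pioglitazone the ratio was below DMSO in 4 of 4 lines, by -0.25 ± 0.10 on average (SD, n = 4 lines, range -0.39 to -0.17). In MOLM-14 and in MV4-11, the lines other than those of the 2 pioglitazone libraries in doubt, the difference was -0.17 each. The exact two-sided sign-flip test gave p 0.125, the smallest that 4 lines allow. With darglitazone the mean difference was -0.09 ± 0.19, lower in 3 of 4 lines (exact p 0.5). With only protein-coding transcripts the pioglitazone difference was -0.27 and lower in 3 of 4 lines (exact p 0.25), and without pairing the libraries by line the exact permutation p was 0.343. These 4 ratio tests were not adjusted for their number.

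The ratio of CISD1 to CISD2, both genes of outer membrane proteins, followed the lines. In the same order of treatments its log2 value was 1.10, 1.23 and 0.83 for MOLM-14, -0.74, -0.27 and -0.05 for OCI-AML3, -0.80, -0.38 and -0.44 for MV4-11, and -0.30, -0.32 and -0.85 for KG-1a. MOLM-14 was the only line above 0. The mean difference from DMSO was -0.06 ± 0.57 with pioglitazone (higher in 2 of 4 lines, exact p 0.875) and 0.19 ± 0.34 with darglitazone (higher in 3 of 4 lines, exact p 0.375), less than the spread between lines.

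**Figure D4:**
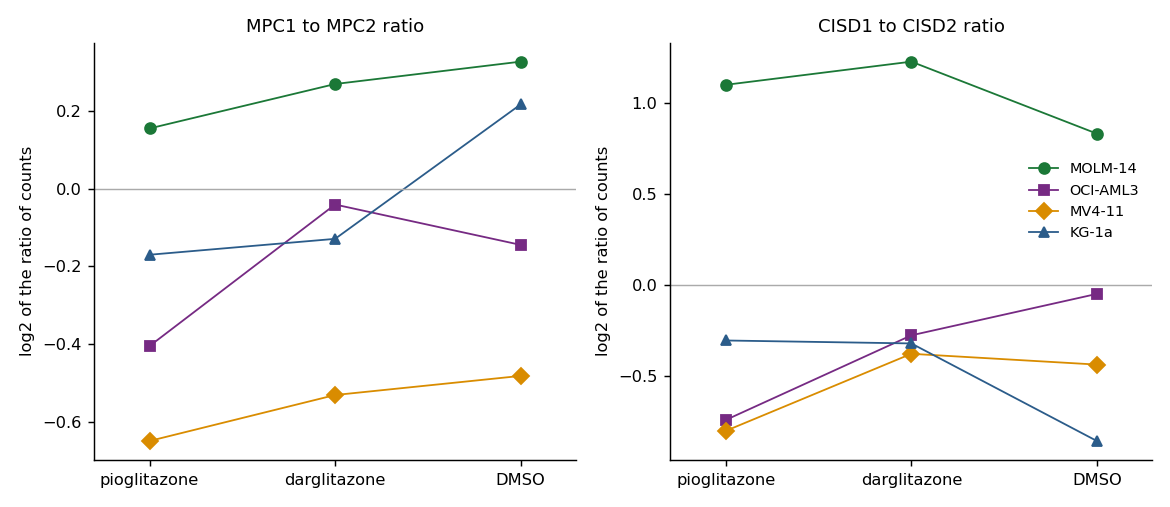
Log2 ratio of counts (vertical axis) of MPC1 to MPC2 (left) and of CISD1 to CISD2 (right) under each treatment (horizontal axis), with 1 line of points per cell line. In the left panel each cell line is lower with pioglitazone than with DMSO, by -0.39 to -0.17, and in the right panel MOLM-14 lies above the others at 0.83 to 1.23.

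Across the 12 libraries the members did not move as 1 group. The Pearson correlation of log2 CPM was 0.44 between MPC1 and MPC2, 0.58 between CISD1 and MPC1, 0.50 between CISD1 and CISD3 and -0.27 between CISD1 and CISD2. Libraries of a line share that line and differ in depth, so these values are descriptions. Among 8823 genes compared, those most like CISD1 were OXCT1 (r 0.966), SUGT1 (0.961) and RPL37 (0.960). OXCT1 encodes the mitochondrial enzyme that starts ketone body use. Those most like CISD2 were YRDC (r 0.939), BLOC1S2 (0.915) and FAHD1 (0.910), and those most like CISD3 were PRRG4 (0.952), NCLN (0.951) and COX5B (0.947), a subunit of cytochrome c oxidase. MPC1 was most like WASH6P (r 0.940), PRUNE1 (0.939) and TMEM126B (0.938), and MPC2 most like TMEM230 (0.904), ZBTB7B (0.898) and HMG20B (0.893).

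The genes around the members were read in lists. With pioglitazone and with darglitazone 0 genes of every list passed in edgeR, as for all genes. Of 22 genes that build iron-sulfur clusters, 16 were lower and 6 higher than DMSO with pioglitazone (median log2 fold change -0.13, 1 gene at an unadjusted p under 0.05), against a median of -0.02 over all genes. With darglitazone 12 were lower and 10 higher (median -0.05, against 0.01 over all genes). The smallest unadjusted p values with pioglitazone were those of the scaffold protein ISCU (-0.32, p 0.0484) and of FDXR, which passes electrons to the ferredoxins (-0.38). Without the pioglitazone libraries of KG-1a and OCI-AML3, ISCU stood at -0.24 (edgeR unadjusted p 0.16) and FDXR at -0.25. Of 19 tested genes of pyruvate supply and use, 9 were lower and 10 higher with pioglitazone (median 0.03; 11 lower and 8 higher with a median of -0.04 without the pioglitazone libraries of KG-1a and OCI-AML3), and 13 were lower and 6 higher with darglitazone (median -0.08). LDHA, which turns pyruvate into lactate, averaged 279.3 ± 50.5 CPM with darglitazone and 375.2 ± 90.2 CPM with DMSO (log2 fold change -0.41, SE 0.095, unadjusted p 0.000624, edgeR adjusted p 0.999988), and PDK1, which switches off pyruvate dehydrogenase, stood at -0.32. With pioglitazone LDHA stood at -0.21, whereas PDK1 was above DMSO in 4 of 4 lines. PDK1 averaged 47.4 ± 26.1 CPM with pioglitazone and 42.8 ± 21.1 CPM with DMSO. Its fitted log2 fold change with pioglitazone was -0.02 without the pioglitazone libraries of KG-1a and OCI-AML3.

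The list of outer membrane and endoplasmic reticulum contact partners included the calcium channel ITPR1, which averaged 188.7 ± 122 CPM with pioglitazone, 187.9 ± 125 CPM with darglitazone and 125.2 ± 53.3 CPM with DMSO. Its log2 fold change was 0.45 with each drug (unadjusted p 0.00468 and 0.0048), and neither passed after adjustment. Without the pioglitazone libraries of KG-1a and OCI-AML3 the pioglitazone value was 0.36. The list of 14 had 7 lower and 7 higher genes with pioglitazone (median 0.0017; 10 lower and 4 higher with a median of -0.08 without those libraries) and 9 lower and 5 higher with darglitazone (median -0.06). Of 16 other mitochondrial carriers, 13 were lower with pioglitazone (median -0.14), with SLC25A10 at -0.50, and 10 with darglitazone (median -0.05). Of 18 markers of mitochondrial content, 16 were lower with each drug, with medians of -0.19 for pioglitazone and -0.12 for darglitazone and with 7 genes and 1 gene at an unadjusted p under 0.05, a limit passed by 5.96% of all genes with pioglitazone and 3.4% with darglitazone. Among them SAMM50, of the outer membrane assembly machinery, averaged 46.4 ± 5.67 CPM with pioglitazone and 64.1 ± 9.54 CPM with DMSO (log2 fold change -0.44, SE 0.13, unadjusted p 0.00375, and -0.24 without the 2 libraries). Without the pioglitazone libraries of KG-1a and OCI-AML3 the pioglitazone medians were -0.15 for the content markers (16 of 18 lower, 0 at an unadjusted p under 0.05 in edgeR), -0.04 for iron-sulfur assembly and -0.06 for the carriers. In bulk RNA, fewer cells of a kind and less RNA per cell cannot be told apart.

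**Figure D5:**
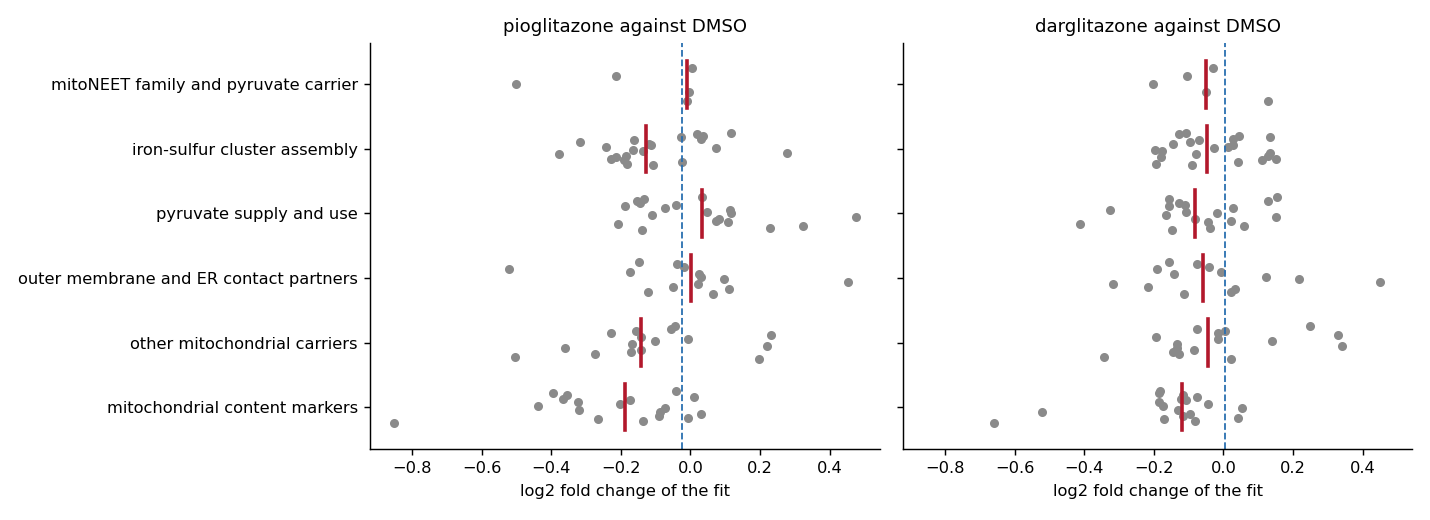
Fitted log2 fold change (horizontal axis) of each gene with pioglitazone (left) and darglitazone (right) against DMSO, in rows for the 5 members and for each list. Grey points are genes, red bars the medians of a row and the dashed line the median of all genes, and the red bar of the content markers lies at -0.19 with pioglitazone and -0.12 with darglitazone.

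The same lists were read between the lines. The line test was passed by 15 of 22 iron-sulfur genes, 16 of 19 pyruvate genes, 14 of 14 contact partners, 15 of 16 carriers and 15 of 18 content markers, against 2 of 5 members and 72.6% of all genes. In the contrast of MOLM-14 with KG-1a, which CISD1 and CISD3 passed, 12 of 18 content markers passed, all of them higher in MOLM-14, where 52.7% of all genes passed in either direction. The median log2 fold change of the 18 was 0.55, against 0.05 over all genes, with 15 above 0 and 3 below. One that passed, the ATP synthase subunit ATP5F1B, averaged 921.0 ± 32.26 CPM for MOLM-14, 856.8 ± 39.55 CPM for OCI-AML3, 727.0 ± 34.15 CPM for MV4-11 and 270.9 ± 18.45 CPM for KG-1a. Its partner ATP5F1A, named after its values were seen, ran the other way without passing, at 750.9 ± 7.01 CPM for MOLM-14, 776 ± 165.8 CPM for OCI-AML3, 1695 ± 1125 CPM for MV4-11 and 2199 ± 1330 CPM for KG-1a (log2 fold change of MOLM-14 over KG-1a -1.38, edgeR adjusted p 0.0524). In the contrast of MOLM-14 with MV4-11, 9 of 18 content markers passed, all higher in MOLM-14, where 37.1% of all genes passed in either direction (median of the 18 0.38, against -0.00080 over all genes, with 13 above 0 and 5 below). The part of these markers in the CISD1 and CISD3 differences was not tested.

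The drugs' nuclear receptor PPARG had at most 91 counts and 1.42 CPM in any library and did not pass the filter on low counts. ACSL4, a fatty acid ligase that thiazolidinediones inhibit, had a log2 fold change of 0.33 with pioglitazone (SE 0.13, unadjusted p 0.0188, edgeR adjusted p 0.80) and 0.02 with darglitazone. The pioglitazone value was 0.42 without the pioglitazone libraries of KG-1a and OCI-AML3. ACSL4 was lower with darglitazone than with pioglitazone in 4 of 4 lines (log2 fold change -0.31, unadjusted p 0.026, edgeR adjusted p 0.98). Without those libraries this value was -0.41.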

How the data were processed

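The table the authors deposited holds an estimated count for each transcript and library, not normalized. Of its values above 0, 89.8% are fractions of a count, and the sources used here do not name the tool that gave them. The submitters' processing notes name fastp, FastQC, STAR, featureCounts and DESeq2 with GRCh38. Per the labels' protocols, a stranded kit with ribosomal depletion was used on total RNA. Transcripts were matched to GENCODE 29 by identifier (99.958% of 203027), summed per gene and rounded. No column was left out as belonging to no sample. The members and lists were chosen with earlier results of these data known.

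Counts were tested with edgeR 4.0.16 in R 4.3.3: filterByExpr by line (minimum count 10, minimum total 15), TMM scaling, a robust quasi-likelihood F test with line and treatment as terms (12 libraries, 6 residual degrees of freedom) and Benjamini-Hochberg adjustment over 15424 genes, threshold 0.05. The libraries of a line are paired because they come from the same cell line. Pairs of lines came from the same fit, and line by drug from a fit with 3 residual degrees of freedom. The SE is the log2 fold change over the square root of F, and intervals are 95%. The test moderates each gene's spread by that of all genes. The p-values and intervals therefore use more degrees of freedom than the residual ones. The fit was checked on simulated counts with changes larger than those fitted for the members between treatments. The simulated drug response did not vary between lines. The check therefore does not measure power or error for these results. Ratios of counts plus 0.5 were compared by exact sign-flip tests over 4 lines. CPM is TMM-scaled, except for markers and PPARG, and TPM uses annotated transcript lengths. Poisson intervals and floors of 3 counts cover counting error only. Tables were made in Python 3.11.15 with pandas 2.3.3 and scipy 1.17.1.

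Named were all 5 members, PPARG and ACSL4, and from the genes of each list up to 4 with the smallest p among those that passed, or the 2 with the smallest p where none did; the text gives only some of these. Likeness was Pearson's r of log2 CPM (mean of at least 3), with the 3 highest named, and transcripts with at least 5% of a gene's counts were described. Alternatives were DESeq2 1.42.0 and its size factors, upper-quartile scaling, library sizes from protein-coding genes, no filter, limma-voom (limma 3.58.1), only protein-coding transcripts, no pairing by line, leaving out the pioglitazone libraries of KG-1a and OCI-AML3 together, leaving out each library and, for the ratios, pseudocounts of 0 and 5. Lists and named list genes without those 2 libraries were added after seeing the data.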

Additional observations from a re-analysis of the deposited data

Results flagged for a closer look

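Among 21 groups of 4 libraries checked, 2 had a library set apart from the other 3, and chance alone flags about 1 in 20 such groups. CISD1 with pioglitazone was 36.2 CPM in MOLM-14, and the gap to the next library took up 0.862 of the range of the 4 libraries. The log2 ratio of CISD1 to CISD2 with darglitazone was 1.23 in MOLM-14, with a gap of 0.937 of the range. MOLM-14 was also the highest line for both values with DMSO, at 31.1 CPM and 0.83.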

How the results depend on the processing

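No member passed a drug contrast in any of the 21 alternatives that gave an adjusted p. DESeq2 gave none for any of the 5 members with pioglitazone against DMSO or with darglitazone against pioglitazone (unadjusted p 0.0267 for CISD3 with pioglitazone and 0.20 to 0.93 for the others). Counts of genes called depended on the test. Without a filter on low counts the fit called 223 genes with pioglitazone, 76 with darglitazone, 88 for darglitazone against pioglitazone and 124 for line by drug. DESeq2 called 74, 6, 12 and 64 in the same order, and limma-voom called 6 with darglitazone and 11 for line by drug. Line by drug had 0 calls with protein-coding transcripts and 85 without the pioglitazone libraries of KG-1a and OCI-AML3. Leaving out 1 library gave 0 to 14 calls with pioglitazone, 0 to 3 with darglitazone, 0 to 3 for darglitazone against pioglitazone and 0 to 22 for line by drug, which could not be fitted without a DMSO library. The drug fits with no replicate block, that is without pairing by line, called 0 genes (85, 21 and 43 at an unadjusted p under 0.05) and changed no call of a member. For CISD3 with pioglitazone the unblocked log2 fold change was -0.54 (edgeR unadjusted p 0.156).

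Log2 fold changes near 0 turned sign, and the cause was not tested. For CISD1 with pioglitazone the values were 0.011 with DESeq2 size factors, 0.025 with upper quartiles, 0.0067 with protein-coding library sizes, 0.025 with DESeq2, 0.081 with limma-voom, 0.024 with protein-coding transcripts and 0.028 without the 2 libraries. For CISD2 with pioglitazone they were 0.018, 0.033, 0.014, 0.016 with DESeq2, 0.37 with protein-coding transcripts and 0.080 without the 2 libraries. MPC2 with pioglitazone was -0.055 without a filter and -0.013 with no replicate block, and MPC1 for darglitazone against pioglitazone -0.079 without the 2 libraries. CISD3 in OCI-AML3 against MV4-11 was -0.034 with DESeq2 size factors, -0.084 with protein-coding library sizes and -0.028 with DESeq2. CISD3 in MOLM-14 was -0.53 against OCI-AML3 and -0.040 against MV4-11 with protein-coding transcripts, and -0.023 against OCI-AML3 without the 2 libraries.

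With 1 library left out, values that turned sign ranged as follows with pioglitazone: CISD1 -0.092 to 0.091, CISD2 -0.081 to 0.077, MPC2 -0.091 to 0.15 and, with 1 line left out, the ratio of CISD1 to CISD2 -0.26 to 0.15. With darglitazone CISD2 ranged from -0.12 to 0.020, MPC1 from -0.19 to 0.026 and MPC2 from -0.11 to 0.15. For darglitazone against pioglitazone CISD2 ranged from -0.115 to 0.024, MPC1 from -0.027 to 0.20 and MPC2 from -0.16 to 0.050. CISD3 ranged from -0.064 to 0.36 in MOLM-14 against MV4-11, -0.021 to 0.38 in MOLM-14 against OCI-AML3 and -0.13 to 0.16 in OCI-AML3 against MV4-11. Depth limits the OCI-AML3 pioglitazone values most, with 11 to 27 counts per member.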
